A study of Mus musculus with 12 samples.

Results

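The 10 genes described here are stress and stretch genes of the heart muscle cell: Acta1, Ankrd1, Ankrd2, Xirp1, Xirp2, Fhl1, Flnc, Uchl1, Actn1 and Nmrk2. They were chosen by name, and each symbol was held by 1 row of a table of 55421 genes. RNA was sequenced from the ventricles of 12 wild-type mice, 4 libraries per group. The Ang II + FI group carried an osmotic minipump that released angiotensin II (Ang II), a pressor peptide used to produce cardiac hypertrophy, and was given Forsythoside I (FI), a compound of the Forsythia plant. The dose of FI was 50 mg/kg into the peritoneum, given on alternate days until day 14 after a first injection on the eve of pump implantation. The Ang II group carried the same pump and received vehicle. The saline group received saline and vehicle. A group on saline with FI is not analysed here, the labels give neither the age or sex of the mice nor the Ang II dose, and n = 4 per group unless stated.

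A heart muscle cell under raised load changes its actin filaments and the proteins that tie them to the Z-disc, to the intercalated disc and to the cell membrane. Several of these proteins sit where force passes through the cell and also shuttle to the nucleus, and their transcripts are textbook markers of pressure overload. Serum response factor, which binds CArG boxes, and TEAD factors, which bind MCAT elements, are the classical regulators of this group, with skeletal alpha-actin as the model gene.

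Across the series, total counts were 68874852 to 80624227 per library. Values are CPM, read counts brought to a common library size with TMM factors (trimmed mean of M-values), which allow for differences in RNA composition between libraries. A gene is said to rise or fall where edgeR's quasi-likelihood test gave a Benjamini-Hochberg adjusted p under 0.05 over all 17376 genes tested. All 10 genes passed the filter on low counts, but Ankrd2 did so only through its libraries with Ang II, where it was higher. The library labelled Ang II + FI 3 stood apart: 12 hepatocyte markers summed to 22813 CPM in it, against 25.1 to 76.9 CPM in the other 11 libraries. Fold changes of the Ang II + FI group are therefore given with and without it. All 10 cardiomyocyte markers passed the filter, with summed levels of 28872 to 37852 CPM in Ang II + FI, 27197 to 32123 CPM in Ang II and 27372 to 37466 CPM in saline libraries. In bulk tissue, more cells of a type and more RNA per cell cannot be told apart, and which cells carried each transcript was not measured.

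Promoter windows, 250 bases before to 50 bases after the transcription start, were found in RefSeq (GRCm38.p6) for 9 of the 10 genes, in 11 windows. The 4 windows shown belong to 4 of the 6 genes whose levels separated Ang II from saline libraries, and each holds at least 1 match to an element searched for other than the TATA box. The windows of Ankrd2 and Actn1, which also separated, hold no such match and are not shown. Capitals mark every match, on either strand, to the CArG box, to MCAT (CATTCC), to the MEF2 site, to AP-1 (TGACTCA or TGAGTCA) and to the TATA box (TATAAA), and positions count from the RefSeq start.

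Acta1, chr8:123894726-123895025, minus strand: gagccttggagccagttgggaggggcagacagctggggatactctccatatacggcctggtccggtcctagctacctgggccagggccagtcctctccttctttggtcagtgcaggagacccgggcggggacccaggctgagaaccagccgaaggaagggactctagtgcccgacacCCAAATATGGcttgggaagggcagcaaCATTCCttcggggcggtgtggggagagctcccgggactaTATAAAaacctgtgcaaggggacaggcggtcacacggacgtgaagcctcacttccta

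Ankrd1, chr19:36119795-36120094, minus strand: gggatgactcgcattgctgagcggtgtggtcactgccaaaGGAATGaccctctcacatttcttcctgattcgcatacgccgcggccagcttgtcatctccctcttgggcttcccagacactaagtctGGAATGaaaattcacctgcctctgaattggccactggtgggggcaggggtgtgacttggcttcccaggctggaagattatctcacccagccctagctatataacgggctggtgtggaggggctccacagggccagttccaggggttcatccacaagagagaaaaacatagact

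Xirp2, chr2:67445752-67446051, plus strand: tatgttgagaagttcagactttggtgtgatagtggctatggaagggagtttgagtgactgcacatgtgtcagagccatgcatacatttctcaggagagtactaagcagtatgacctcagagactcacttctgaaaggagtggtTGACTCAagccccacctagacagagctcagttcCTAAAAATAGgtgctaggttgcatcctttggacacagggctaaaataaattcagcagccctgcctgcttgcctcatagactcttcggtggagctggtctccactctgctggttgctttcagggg

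Flnc, chr6:29433006-29433305, plus strand: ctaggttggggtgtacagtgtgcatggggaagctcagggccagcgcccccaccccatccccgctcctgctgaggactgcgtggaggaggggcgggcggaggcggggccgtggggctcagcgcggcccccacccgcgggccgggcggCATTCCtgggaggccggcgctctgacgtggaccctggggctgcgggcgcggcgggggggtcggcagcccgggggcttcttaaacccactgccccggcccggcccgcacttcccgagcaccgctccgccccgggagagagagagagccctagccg

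The Acta1 window held a CArG box at -73 to -64, an MCAT at -46 to -41 and a TATA box at -7 to -2, and the GENCODE start of the gene lies 24 bases downstream of the RefSeq one. The Ankrd1 window held 2 MCAT matches, both on the opposite strand, at -210 to -205 and -123 to -118. The GENCODE start of Ankrd1 lies upstream of both, at -255, so by that annotation they lie inside the gene. Xirp2 had an AP-1 match at -107 to -101 and a MEF2 site at -74 to -65, and the Flnc window had 1 MCAT at -104 to -99. Among all 32851 windows of this length, 1.63% held a CArG box, 14.7% an MCAT, 3.19% a MEF2 site, 5.2% an AP-1 match and 13.6% a TATA box. Of the members' 11 windows, 2 held a CArG box (Acta1 and 1 of 2 starts of Fhl1) and 4 an MCAT (Acta1, Ankrd1 and both overlapping windows of Flnc). The GENCODE start of Fhl1 lies far upstream of that RefSeq start, at -47896, so by that annotation this window, too, lies inside the gene. A match is a run of letters and no measurement of binding.

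Ang II raised the skeletal actin and the Xin-repeat gene Xirp2, and 6 of the 10 genes separated completely from saline. By edgeR 2 of the 10 genes rose and 0 fell in Ang II against saline libraries, where 1.57% of all tested genes rose and 0.662% fell. For 6 genes (Acta1, Ankrd1, Ankrd2, Xirp2, Flnc and Actn1) every Ang II library lay above every saline library, a pattern seen in 7.36% of all tested genes. Ankrd2 is counted here and below although it was tested only because of its level with Ang II. The median log2 fold change was 0.51 over the 10 genes and 0.005 over all tested genes, and 9 of the 10 were above 0, against 50.6% of all tested genes. DESeq2, used as an alternative, called 6 of the 10 higher, namely those 6 genes, where it called 4.54% of its 14677 genes higher.

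No gene of the group passed the threshold between Ang II + FI and Ang II. By edgeR 0 of the 10 genes were called, as were 0% of all tested genes, and DESeq2 called 0 of the 10 and 0.252% of its genes. With an unadjusted p under 0.05 were 2 of the 10 (Flnc, higher, and Actn1, lower) and 9.95% of all tested genes. The log2 fold change was above 0 for 7 of the 10 genes and 53.1% of all tested genes, and the groups overlapped for all 10, where 5.4% of tested genes did not overlap. Leaving out Ang II + FI 3, edgeR again called 0 of the 10, and 0.00565% of all tested genes. Beside these values, all 10 cardiomyocyte markers had log2 fold changes above 0 in Ang II + FI against Ang II (median 0.142, and 0.217 without Ang II + FI 3). Above 0 were 0 of 8 endothelial markers (median -0.306), 0 of 8 smooth muscle and pericyte markers (median -0.267) and 1 of 8 fibroblast markers (median -0.279). These were 1 of 8 (-0.26), 1 of 8 (-0.246) and 1 of 8 (-0.202) without Ang II + FI 3. None of these 34 markers passed the threshold there, and the part of cell composition in the members' values was not tested.

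Against saline, 3 of the 10 genes (Acta1, Xirp2 and Flnc) rose in Ang II + FI libraries and 0 fell, where 0.719% of all tested genes rose and 0.259% fell. Without Ang II + FI 3 the same 3 genes were called, where 0.932% of all tested genes rose. DESeq2 called 6 of the 10 higher here (those 3 with Ankrd1, Ankrd2 and Xirp1), where it called 3.39% of its genes higher. The median log2 fold change over the 10 genes was 0.691, against 0.024 over all tested genes. The comparisons share libraries, so these counts are not independent of each other.

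**Figure D1:**
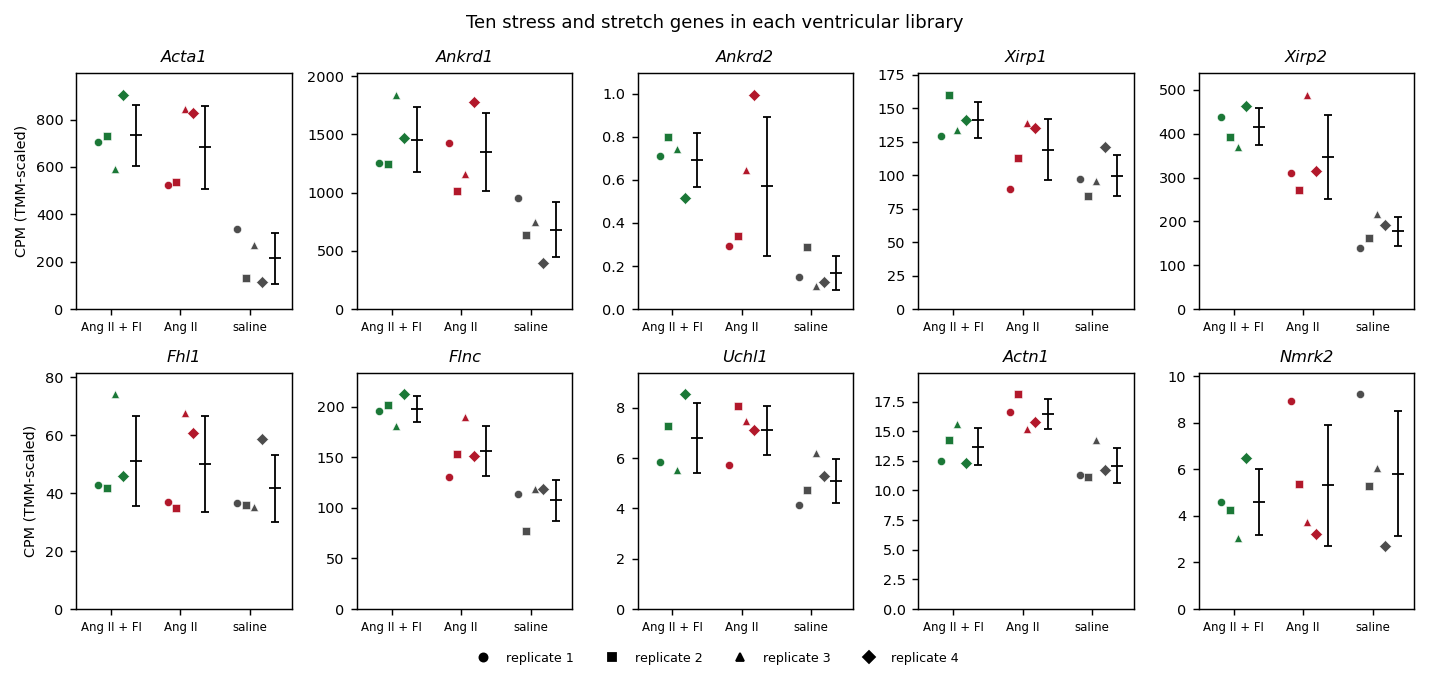
Each panel plots the TMM-scaled CPM of 1 gene (vertical axis from 0) in the 4 Ang II + FI, 4 Ang II and 4 saline libraries, with 1 symbol per replicate number and the mean and SD beside the points. Acta1, Ankrd1, Ankrd2, Xirp2 and Flnc lie higher in both Ang II groups than in every saline library, whereas Nmrk2 overlaps in all 3 groups.

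Per kilobase of exon, which allows genes to be set side by side, Ankrd1 and Acta1 were the most abundant in saline hearts, at 236 ± 81.6 and 140 ± 70.4 CPM per kilobase (mean ± SD, n = 4). Their ranges overlapped, and both lay above all the others. Xirp1 (17 ± 2.59), Xirp2 (14.8 ± 2.82), Flnc (11.4 ± 2.16) and Fhl1 (11.2 ± 3.06 CPM per kilobase) followed, each overlapping the next in that order. Nmrk2 (3.14 ± 1.45), Uchl1 (3.12 ± 0.532) and Actn1 (2.19 ± 0.269 CPM per kilobase) formed the next tier, again each overlapping the next. Ankrd2 was the lowest at 0.148 ± 0.0711 CPM per kilobase, with 8 to 20 counts in each saline library.

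Acta1 (chromosome 8, 123891769 to 123894751, minus strand, GRCm38) encodes skeletal muscle alpha-actin, the sarcomeric actin that the fetal heart uses and the loaded adult heart makes again. Its level was 706, 732, 593 and 905 CPM in the Ang II + FI libraries 1 to 4, 524, 537, 844 and 827 CPM in the Ang II libraries and 340, 133, 270 and 116 CPM in the saline libraries. Every library with Ang II, with or without FI, lay above every saline library, and both Ang II groups overlapped each other. The log2 fold change was 1.67 ± 0.32 for Ang II against saline (SE, edgeR adjusted p = 0.0228), about 3.18-fold. It was 1.77 ± 0.32 for Ang II + FI against saline (edgeR adjusted p = 0.0291) and 0.10 ± 0.31 for Ang II + FI against Ang II (edgeR adjusted p = 0.941), with a 95% interval of -0.58 to 0.78. Without Ang II + FI 3 the values with FI were 1.86 ± 0.33 against saline (edgeR adjusted p = 0.0217) and 0.19 ± 0.33 against Ang II. The calls against saline lay near the threshold and were lost in several fits without 1 library. For Ang II this was so without saline 2 (1.497), saline 4 (1.46), Ang II 2 (1.77), Ang II 3 (1.55) or Ang II 4 (1.56), at edgeR adjusted p of up to 0.074. For Ang II + FI it was so without saline 2 (1.60), saline 3 (1.90), saline 4 (1.57), Ang II 2 (1.77), Ang II + FI 1 (1.79) or Ang II + FI 4 (1.66), at edgeR adjusted p of up to 0.0833. Ang II 2 belongs to neither group of that comparison. Over all 12 such fits the log2 fold change against saline was 1.46 to 1.98 for Ang II and 1.57 to 2.09 for Ang II + FI.

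The adult heart mostly uses Actc1, the cardiac alpha-actin, so the Acta1 share of both transcripts per kilobase shows how far their balance in RNA shifted. Actin protein was not measured. The share was 8.83, 6.84, 7.03 and 8.93% in Ang II + FI libraries, 6.25, 6.53, 8.81 and 9.56% in Ang II libraries and 3.33, 1.65, 2.81 and 1.13% in saline libraries. Both Ang II groups lay entirely above saline. It averaged 7.79 ± 1.65% in Ang II and 2.23 ± 1.02% in saline (SD, n = 4 each, exact two-sided permutation p = 0.0286, the smallest that 4 against 4 allows). Ang II + FI averaged 7.91 ± 1.13%, which differed from Ang II by 0.121 points (exact two-sided permutation p = 0.857). Without Ang II + FI 3 it averaged 8.2 ± 1.18%, 0.414 points above Ang II (exact two-sided permutation p = 0.8). Of 50-base stretches of the longest Acta1 transcript, 2.22% also occur without mismatch in a transcript of another gene. How reads that match more than 1 gene were counted is not given, and their part in the share was not tested. The 12 skeletal muscle markers, of interest because skeletal muscle is rich in Acta1, summed to 1.25 to 2.22 CPM in Ang II + FI, 1.52 to 2.17 CPM in Ang II and 1.3 to 1.89 CPM in saline libraries, 11 of the 12 stayed under 1 CPM in every library, and Myh2 had no count.

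**Figure D2:**
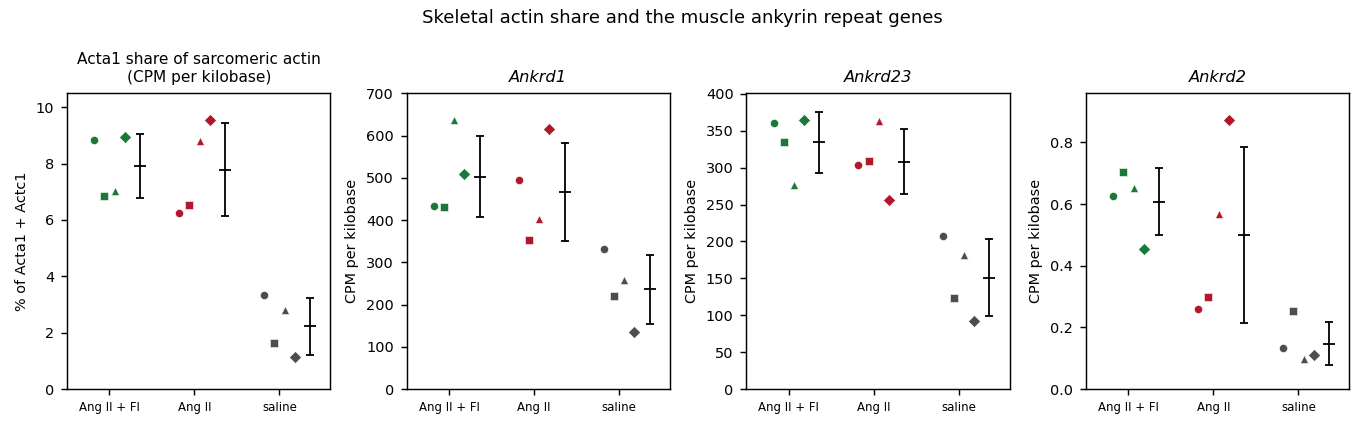
The left panel shows the Acta1 share of Acta1 plus Actc1 per kilobase (percent), and the other 3 panels the CPM per kilobase of Ankrd1, Ankrd23 and Ankrd2, in Ang II + FI, Ang II and saline libraries with mean and SD. In all 4 panels both Ang II groups lie above every saline library.

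Ankrd1 and Ankrd2 encode muscle ankyrin repeat proteins, which bind the spring region of titin and move to the nucleus when muscle is stretched. Ankrd1 (chromosome 19, 36111961 to 36120099) is the cardiac member. It reached 1254, 1246, 1840 and 1468 CPM in Ang II + FI libraries, 1425, 1018, 1159 and 1777 CPM in Ang II libraries and 958, 635, 746 and 394 CPM in saline libraries. The groups with Ang II did not overlap with saline, the nearest values being 1018 and 958 CPM. For Ang II against saline the log2 fold change was 0.98 ± 0.25 (edgeR adjusted p = 0.0637), which missed the threshold. It was 0.97 with an edgeR adjusted p of 0.0403 without Ang II + FI 3, which belongs to neither group but adds to the common estimate of the spread. That fit called 4 of the 10 genes, Acta1, Xirp2, Ankrd1 and Actn1, where 2.49% of all tested genes were higher. For Ang II + FI it was 1.09 ± 0.25 against saline (edgeR adjusted p = 0.0622) and 0.11 ± 0.25 against Ang II (95% interval -0.43 to 0.65, edgeR adjusted p = 0.922). These were 0.95 ± 0.25 (edgeR adjusted p = 0.0887) and -0.03 ± 0.25 without Ang II + FI 3, the library with the most Ankrd1.

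Ankrd2 (chromosome 19, 42036000 to 42045110), the member best known from slow skeletal muscle, was scarce. It had 0.711, 0.801, 0.741 and 0.516 CPM in Ang II + FI libraries, 0.295, 0.339, 0.648 and 0.995 CPM in Ang II libraries and 0.15, 0.287, 0.11 and 0.125 CPM in saline libraries. These values rest on 36 to 56, 22 to 81 and 8 to 20 counts per library. Ankrd2 passed the filter on low counts through its libraries with Ang II, so its differences from saline carry less weight. All 8 libraries with Ang II lay above saline, although Ang II 1 and saline 2 were nearly level. Its log2 fold change was 1.75 ± 0.46 for Ang II against saline and 2.03 ± 0.47 for Ang II + FI against saline (edgeR adjusted p = 0.0725 and 0.0614), the largest of the 10 genes in size though past neither threshold. Against Ang II, Ang II + FI stood at 0.28 ± 0.44 (edgeR adjusted p = 0.878), and without Ang II + FI 3 the values were 0.24 against Ang II and 1.99 against saline.

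Ankrd23, the remaining family member, is not among the 10 genes but rose beside them. It had 973, 902, 745 and 984 CPM in Ang II + FI libraries, 821, 832, 980 and 691 CPM in Ang II libraries and 558, 331, 490 and 249 CPM in saline libraries. All 8 values with Ang II were above all 4 saline values. Its log2 fold change against saline was 1.15 ± 0.22 in Ang II + FI (edgeR adjusted p = 0.0326) and 1.03 ± 0.22 in Ang II (edgeR adjusted p = 0.0324). The call was lost in 8 of the 12 fits without 1 library for Ang II + FI (0.97 to 1.34) and in 6 of 12 for Ang II (0.85 to 1.22), and the value with FI was 1.22 without Ang II + FI 3 (edgeR adjusted p = 0.0225).

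Xirp1 and Xirp2 encode Xin actin-binding repeat proteins, which bundle actin filaments at the intercalated disc and the myotendinous junction. Xirp2 (chromosome 2, 67446002 to 67526614) had 439, 393, 369 and 463 CPM in Ang II + FI libraries, 311, 272, 489 and 316 CPM in Ang II libraries and 139, 163, 217 and 191 CPM in saline libraries. Neither Ang II group overlapped with saline, and Ang II 3 held the highest value of all. The log2 fold change was 0.97 ± 0.18 for Ang II against saline (edgeR adjusted p = 0.0214) and 1.23 ± 0.18 for Ang II + FI against saline (edgeR adjusted p = 0.0127, and 0.00892 without Ang II + FI 3). The Ang II call was lost without saline 1 (0.87), saline 2 (0.93), saline 4 (1.00) or Ang II 4 (1.01), at edgeR adjusted p of up to 0.0647, and that of Ang II + FI without saline 2 (1.19, edgeR adjusted p = 0.0501). Ang II + FI against Ang II gave 0.26 ± 0.18 (95% interval -0.13 to 0.66, edgeR adjusted p = 0.656), and 0.31 without Ang II + FI 3.

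Xirp1 (chromosome 9, 120013755 to 120023598) moved less. Its level was 129, 160, 134 and 141 CPM in Ang II + FI libraries, 89.3, 113, 139 and 135 CPM in Ang II libraries and 97.4, 84.3, 95.6 and 121 CPM in saline libraries. Ang II and saline libraries overlapped, whereas all 4 Ang II + FI libraries lay above saline, one of 6 genes to do so (the others were Acta1, Ankrd1, Ankrd2, Xirp2 and Flnc), a separation seen in 5.01% of all tested genes. The log2 fold changes were 0.26 ± 0.15 for Ang II against saline (edgeR adjusted p = 0.412), 0.24 ± 0.15 for Ang II + FI against Ang II (0.604 by edgeR) and 0.50 ± 0.15 for Ang II + FI against saline (edgeR adjusted p = 0.112). Leaving out Ang II + FI 3, the values with FI were 0.26 against Ang II and 0.52 against saline. Whether Xirp2 differed more than Xirp1 was not tested.

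**Figure D3:**
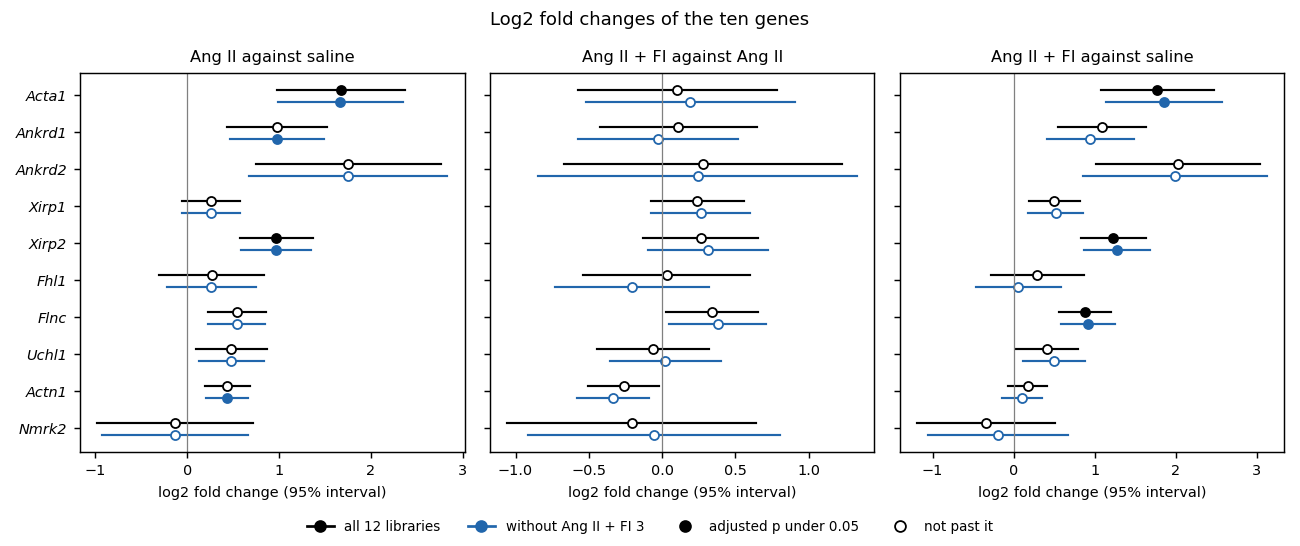
Log2 fold changes (horizontal axis) with 95% intervals are shown for the 10 genes in 3 comparisons, from all 12 libraries (black) and without Ang II + FI 3 (blue), with filled points for an edgeR adjusted p under 0.05. Acta1 and Xirp2 are filled for Ang II against saline (with Ankrd1 and Actn1 among the blue points), no point is filled for Ang II + FI against Ang II, and Acta1, Xirp2 and Flnc are filled for Ang II + FI against saline.

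Flnc (chromosome 6, 29433256 to 29461883) encodes filamin C, the muscle filamin that crosslinks actin at the Z-disc and membrane and is replaced by chaperone-assisted autophagy when it unfolds under tension. Its values were 196, 202, 181 and 212 CPM in Ang II + FI libraries, 130, 153, 190 and 151 CPM in Ang II libraries and 114, 77.2, 119 and 119 CPM in saline libraries. The order of the group means was Ang II + FI, Ang II, saline, with Ang II 3 alone reaching into the range of Ang II + FI. Ang II against saline gave a log2 fold change of 0.54 ± 0.14 (edgeR adjusted p = 0.0742). With FI it was 0.88 ± 0.14 against saline (edgeR adjusted p = 0.0201) and 0.34 ± 0.14 against Ang II (unadjusted p = 0.0353 and adjusted p = 0.475, edgeR). Without Ang II + FI 3, Flnc was 0.92 ± 0.15 against saline (edgeR adjusted p = 0.0162) and 0.38 ± 0.15 against Ang II (edgeR adjusted p = 0.573), and the 3 remaining libraries lay above all 4 Ang II libraries, as in 4.32% of all tested genes. The call against saline was lost without saline 1 (0.91), Ang II + FI 1 (0.89) or Ang II + FI 4 (0.85), at edgeR adjusted p of up to 0.0705.

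Actn1 (chromosome 12, 80167547 to 80260371) encodes the non-muscle alpha-actinin of stress fibres and focal adhesions, unlike Actn2, the alpha-actinin of the cardiac Z-disc. It had 12.5, 14.3, 15.6 and 12.3 CPM in Ang II + FI libraries, 16.6, 18.1, 15.2 and 15.8 CPM in Ang II libraries and 11.3, 11.1, 14.3 and 11.7 CPM in saline libraries. Ang II libraries lay above all saline libraries, and Ang II + FI libraries overlapped with both. The log2 fold change was 0.44 ± 0.11 for Ang II against saline (edgeR adjusted p = 0.0633, and 0.0402 without Ang II + FI 3 and 0.0374 without saline 3). Ang II + FI against Ang II gave -0.26 ± 0.11 (unadjusted p = 0.0358 and adjusted p = 0.475, edgeR). It gave -0.33 ± 0.11 without Ang II + FI 3 (edgeR adjusted p = 0.542), where all 3 remaining libraries lay below the 4 Ang II libraries, as in 5.25% of all tested genes. Against saline, Ang II + FI stood at 0.18 ± 0.11 (edgeR adjusted p = 0.462), and at 0.10 without Ang II + FI 3.

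Other cells than muscle cells also make Actn1, and markers of 4 such cell types were set beside it. The 8 fibroblast markers summed to 1000 to 1221 CPM in Ang II + FI, 1303 to 1419 CPM in Ang II and 851 to 1109 CPM in saline libraries, and 4 of the 8 rose in Ang II against saline (5 without Ang II + FI 3). The 8 smooth muscle and pericyte markers summed to 853 to 1074 CPM in Ang II + FI, 1131 to 1137 CPM in Ang II and 958 to 1123 CPM in saline. Of these 8, 1 rose and 0 fell in Ang II against saline, and 1 rose and 1 fell without Ang II + FI 3. The 8 endothelial markers summed to 1034 to 1443 CPM in Ang II + FI, 1348 to 1462 CPM in Ang II and 958 to 1255 CPM in saline, and the 8 macrophage markers to 258 to 325, 298 to 335 and 188 to 223 CPM in the same groups, with 0 and 5 rising in Ang II against saline. Over all tested genes 1.57% rose and 0.662% fell in that comparison, and 2.49% rose without Ang II + FI 3. In Ang II + FI against saline the median log2 fold changes were 0.21 for fibroblast, -0.218 for endothelial, -0.11 for smooth muscle and pericyte and 0.548 for macrophage markers (0.279, -0.141, -0.085 and 0.572 without Ang II + FI 3). Of the 8 macrophage markers, too, 0 passed the threshold in Ang II + FI against Ang II. Their part in the values of Actn1 was not tested.

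Fhl1 (chromosome X, 56731787 to 56793346) encodes a LIM-domain protein that sits on the elastic N2B region of titin and takes part in the hypertrophic response to load. It had 42.7, 41.7, 74.1 and 46 CPM in Ang II + FI libraries, 36.9, 34.8, 67.8 and 60.7 CPM in Ang II libraries and 36.7, 35.9, 35.2 and 58.8 CPM in saline libraries. Each group held 1 or 2 libraries well above its others, and the groups overlapped fully. Log2 fold changes were 0.26 ± 0.26 for Ang II against saline (95% interval -0.31 to 0.84), 0.03 ± 0.26 for Ang II + FI against Ang II and 0.30 ± 0.26 for Ang II + FI against saline (edgeR adjusted p = 0.698, 0.983 and 0.617). Without Ang II + FI 3, which held the most Fhl1, the values for Ang II + FI were -0.21 ± 0.24 against Ang II and 0.06 ± 0.24 against saline. Fhl2, a close relative that the heart expresses strongly, measured 1395 to 1916 CPM in Ang II + FI, 1443 to 1755 CPM in Ang II and 1433 to 1777 CPM in saline libraries.

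Uchl1 and Nmrk2 are the enzymes of the group. Uchl1 (chromosome 5, 66676091 to 66687234), a ubiquitin C-terminal hydrolase that is abundant in neurons, had 5.84, 7.27, 5.54 and 8.53 CPM in Ang II + FI libraries, 5.74, 8.06, 7.47 and 7.13 CPM in Ang II libraries and 4.15, 4.73, 6.19 and 5.3 CPM in saline libraries. The groups overlapped through Ang II 1, Ang II + FI 1, Ang II + FI 3 and saline 3. Its log2 fold change was 0.48 ± 0.18 for Ang II against saline (edgeR adjusted p = 0.187), -0.06 ± 0.18 for Ang II + FI against Ang II (0.937 by edgeR, and a value of 0.02 without Ang II + FI 3) and 0.42 ± 0.18 for Ang II + FI against saline (edgeR adjusted p = 0.253, and a value of 0.50 without Ang II + FI 3). The 9 neuron and Schwann cell markers summed to 10.6 to 11.9 CPM in Ang II + FI, 12.5 to 14.5 CPM in Ang II and 8.63 to 12.5 CPM in saline libraries, with Th and Chga at no count in any library. Their part in the values of Uchl1 was not tested.

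Nmrk2 (chromosome 10, 81198170 to 81202051), a nicotinamide riboside kinase that feeds NAD synthesis in muscle, had the log2 fold change nearest to 0 among the 10 genes in Ang II against saline. It had 4.61, 4.23, 3.04 and 6.49 CPM in Ang II + FI libraries, 8.93, 5.35, 3.74 and 3.2 CPM in Ang II libraries and 9.21, 5.3, 6.05 and 2.69 CPM in saline libraries. The spread within a group, 31.2 to 48.7% of the mean (coefficient of variation), exceeded the differences between groups. Log2 fold changes were -0.13 ± 0.39 for Ang II against saline (95% interval -0.98 to 0.72), -0.21 ± 0.39 for Ang II + FI against Ang II (-0.05 without Ang II + FI 3) and -0.34 ± 0.39 for Ang II + FI against saline (-0.19 without it), at edgeR adjusted p of 0.922, 0.905 and 0.71. The gene model overlaps Atcayos on the opposite strand by 270 exonic bases, and Atcayos was more abundant, at 46.9 to 67.6 CPM in Ang II + FI, 43.9 to 59.5 CPM in Ang II and 52 to 75.5 CPM in saline libraries. Whether the counting used strand is not given, so reads of the overlap may have been counted to either gene or to neither. With both summed, an alternative added after seeing the data, the log2 fold changes were -0.24, 0.17 and -0.07 in the same order, none past the threshold. Atcayos alone stood at -0.25, 0.20 and -0.04 in that order. The sum therefore follows mainly Atcayos and cannot show how Nmrk2 changed.

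**Figure D4:**
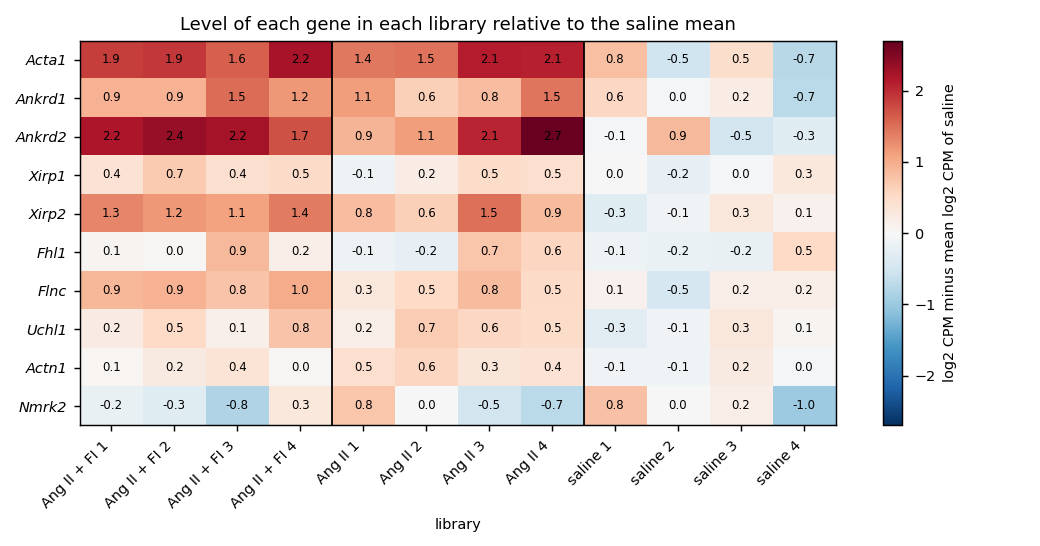
Colours and numbers show log2 CPM of each gene (rows) in each library (columns, Ang II + FI, Ang II and saline) minus the mean log2 CPM of the 4 saline libraries. Acta1, Ankrd1, Ankrd2, Xirp2 and Flnc are above 0 in all 8 libraries with Ang II, as are Uchl1 and, in some libraries barely, Actn1. Fhl1 and Nmrk2 vary from library to library within each group.

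In the wider mechanical network, 6 lists of related genes held 7 genes called in Ang II against saline. Over all tested genes 1.57% rose and 0.662% fell in that comparison. The lists held 16, 20, 20, 16, 12 and 16 tested genes. They were chosen with earlier results of these data known, so the count is no test of the network. Of 16 tested family relatives of the 10 genes, 1 rose and 0 fell in Ang II against saline (median log2 fold change 0.17), namely Ankrd23. Flna, the filamin of non-muscle cells, had a log2 fold change of 0.50 ± 0.12 and did not pass the threshold with all libraries, though it did without Ang II + FI 3 (edgeR adjusted p = 0.0369). Actc1 stood at -0.21 ± 0.11 (edgeR adjusted p = 0.367).

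Among 20 Z-disc, titin and stretch sensor genes, 2 rose and 0 fell (median 0.10): Myot, the Z-disc protein myotilin, by 1.03 ± 0.17 (edgeR adjusted p = 0.0138) and Synpo2l, an actin-binding protein of the Z-disc, by 0.92 ± 0.17 (edgeR adjusted p = 0.0201). The giant actin ruler Neb had 0.83 ± 0.25 and did not pass. Myot lost its call without saline 4 (1.03) or Ang II 4 (0.99), and Synpo2l without saline 1 (0.84), saline 2 (0.85), Ang II 2 (0.88) or Ang II 3 (0.76). In Ang II + FI against saline, where 0.719% of all tested genes rose, 4 of these 20 rose. They were Myot (1.11 ± 0.17), Synpo2l (1.31 ± 0.17), Neb (1.31 ± 0.25) and Csrp3, the muscle LIM protein (0.70 ± 0.15), with edgeR adjusted p of 0.0147, 0.00613, 0.0367 and 0.0455. Without Ang II + FI 3 they stood at 1.195, 1.31, 1.30 and 0.67 in that order, with edgeR adjusted p of 0.00701, 0.00694, 0.0395 and 0.0578. In that fit 4 of the 20 rose as well, with another gene of the list in place of Csrp3, where 0.932% of all tested genes rose. The calls of Neb and Csrp3 were lost in 10 (1.15 to 1.61) and 11 (0.55 to 0.80) of the 12 fits without 1 library, and that of Myot without saline 4 (1.12), Ang II + FI 1 (1.07) or Ang II + FI 4 (1.09).

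Of 20 costamere and focal adhesion genes, 1 rose in Ang II against saline and 0 fell (median 0.04): Nrap, a nebulin-related anchor of actin at the intercalated disc, by 0.60 ± 0.12 (edgeR adjusted p = 0.0236). Nrap rose by 1.00 ± 0.12 in Ang II + FI against saline (edgeR adjusted p = 0.00383, and 1.05 without Ang II + FI 3), a call kept in each of the 12 fits without 1 library, while that of Ang II was lost in 4 of 12 (0.50 to 0.69). The adhesion genes Tln1 and Lims2 had 0.32 ± 0.08 and 0.41 ± 0.12 for Ang II against saline, and neither passed.

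Of 16 genes for SRF, MRTF, MEF2 and TEAD regulators, 2 rose and 0 fell in Ang II against saline (median -0.04). Abra, a sarcomeric protein that activates MRTF and SRF, rose by 0.79 ± 0.15 in Ang II (edgeR adjusted p = 0.0236) and by 1.25 ± 0.15 in Ang II + FI (edgeR adjusted p = 0.00432), each against saline. The call with FI was kept in each of the 12 fits without 1 library (1.29 without Ang II + FI 3), and that of Ang II was lost in 6 (0.65 to 0.91). Tead2 rose by 0.70 ± 0.16 in Ang II (edgeR adjusted p = 0.0453), lost in 9 of the 12 (0.62 to 0.80), and Wwtr1, which encodes the TEAD coactivator TAZ, stood at 0.33 ± 0.11 without passing.

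Of 12 filamin C chaperone and turnover genes, 1 rose and 0 fell in Ang II against saline (median 0.13). It was the small heat shock gene Hspb7, a filamin C partner, at 0.64 ± 0.11 in Ang II (edgeR adjusted p = 0.0156) and 0.93 ± 0.11 in Ang II + FI (edgeR adjusted p = 0.00422), each against saline. Without single libraries the call with FI was kept in each of 12 fits (0.97 without Ang II + FI 3) and that of Ang II lost in 4 (0.58 to 0.76). Hspb1 and Stub1 had log2 fold changes of 0.30 ± 0.12 and -0.20 ± 0.09 for Ang II against saline and passed no threshold.

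The 16 genes of NAD synthesis and use, the pathway of Nmrk2, had 0 called in all 3 comparisons by edgeR, with a median of 0.004 for Ang II against saline. Nmnat3, an NMN adenylyltransferase, stood lowest by p at -0.46 ± 0.13, followed by Parp1 at -0.31 ± 0.11 and Sirt3 at -0.25 ± 0.11. In Ang II + FI against Ang II, 0 genes of any of the 6 lists passed the threshold, with list medians of -0.01 for family relatives, 0.16 for Z-disc genes, 0.03 for costamere genes, 0.05 for regulators, 0.09 for filamin C chaperones and 0.12 for NAD genes, beside 0.107 for the 10 genes and 0.018 for all tested genes. Leaving out Ang II + FI 3, the list medians were -0.013 for family relatives, 0.237 for Z-disc genes, 0.07 for costamere genes, 0.056 for regulators, 0.099 for filamin C chaperones and -0.011 for NAD genes, so that of the NAD genes turned sign. The 10 genes then had 0.106 and all tested genes -0.003.

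**Figure D5:**
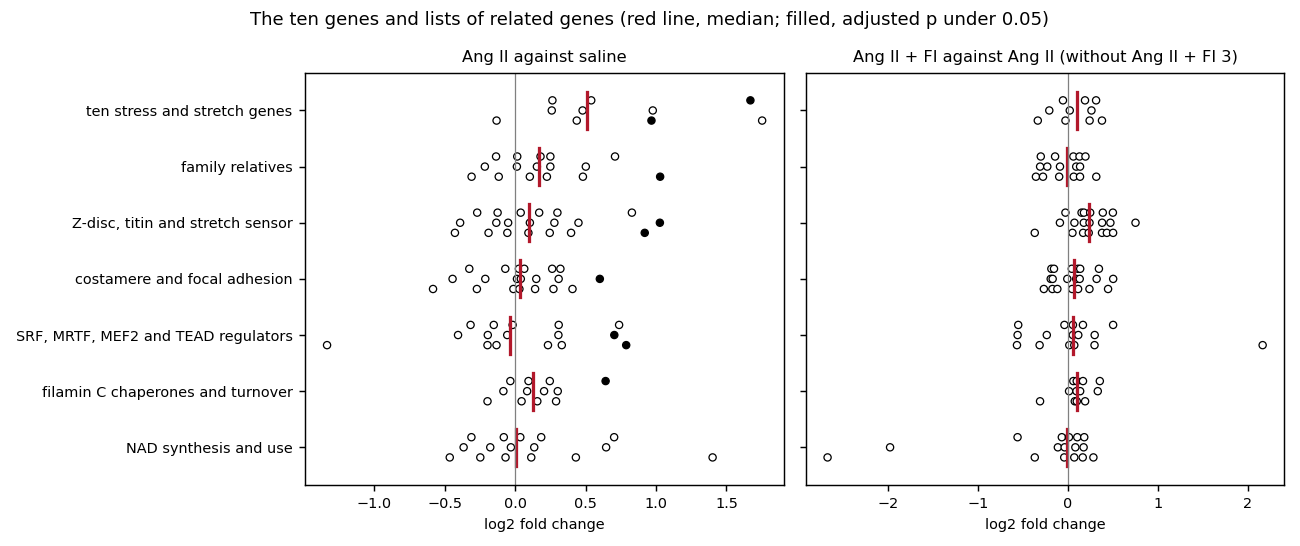
Each point is the log2 fold change (horizontal axis) of 1 gene among the 10 stress and stretch genes or in 6 lists of related genes, for Ang II against saline from all 12 libraries (left) and for Ang II + FI against Ang II without Ang II + FI 3 (right). Red lines are medians, 0.51 for the 10 genes on the left and 0.106 on the right, and filled points, which appear on the left panel only, have an edgeR adjusted p under 0.05.

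The genes most like each member over the 11 libraries other than Ang II + FI 3 were found among about 11947 protein-coding genes of at least 1 CPM, by the mean absolute difference of log2 CPM in SD units. For Acta1 they were Tnfrsf12a, a receptor of the TNF family, at 0.158 SD, and Ankrd23 at 0.191 SD, where the median gene lay at 1.1 SD. Nrap followed Flnc at 0.182 SD, behind Pcbp4 at 0.156 SD. For Xirp2 the order was 6430548M08Rik (0.197 SD), Otulin (0.229 SD) and Synpo2l (0.245 SD), and for Ankrd2 it was Ptpn1 (0.231 SD), Rac3 (0.242 SD) and Ccn2, the connective tissue growth factor (0.281 SD). The nearest to Ankrd1 was the chemokine gene Cxcl16 at 0.197 SD, and to Xirp1 the mitophagy receptor gene Bnip3 at 0.23 SD. Among the members themselves, Acta1 and Ankrd1 were the closest pair at 0.318 SD, followed by Xirp2 and Flnc at 0.334 SD. The nearest genes of Fhl1 (Avpi1, 0.279 SD), Uchl1 (Cyb561, 0.297 SD), Actn1 (Sptlc2, 0.267 SD) and Nmrk2 (Plk2, 0.4 SD) lay farther away. These distances describe libraries that share group, depth and scaling, and they carry no test.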

How the data were processed

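RNA of mouse ventricles was sequenced in 12 libraries. Per the labels' protocols, TRIzol is named in one field and an RNeasy kit in another, and libraries were made with a SMARTER mRNA kit. The authors deposited raw counts per gene. HISAT, DESeq 1.8.3, featureCounts 1.5.0-p3 and GRCm38 are named per the submitters' processing notes, and no strand setting, treatment of multi-mapped reads or annotation release is.

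Groups follow the sample titles. The labels say no more of the replicates than their number, so p-values measure the spread between these samples. Counts were filtered (filterByExpr), scaled by TMM and fitted with 3 group means over all 12 libraries (edgeR 4.0.16, R 4.3.3). Standard errors are the log2 fold change over the root of F. DESeq2 1.42.0 and limma-voom (limma 3.58.1) were alternatives, and shares were compared by exact permutation (scipy 1.17.1). Loci, exon lengths and overlaps came from GENCODE M21, which matched 99.7% of gene IDs. A count of 3 equals 0.0372 to 0.0436 CPM of the library total, counting error only. Simulated counts served to test the procedure. Between Ang II + FI and Ang II it detected 12 out of 71 simulated shifts at 1.5-fold, 22 out of 67 at 2-fold and 54 out of 62 at 4-fold. Ang II against saline gave 8 out of 69, 23 out of 58 and 54 out of 73 at the same sizes. Ang II + FI against saline gave 8 out of 69, 26 out of 69 and 46 out of 62. Most shifts of 1.5-fold to 2-fold were thus missed, so a gene without a call may still differ by that much.

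The 10 genes, the related lists and the markers were chosen with earlier results of these data known. Named besides the 10 genes are up to 3 genes per related list by p in Ang II against saline, close relatives, and the 3 most similar genes per member. Csrp3 was named after its values were seen.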

Additional observations from a re-analysis of the deposited data

Results flagged for a closer look

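In 3 of the 33 sets of 4 values examined (each gene and the Acta1 share in each group), 1 library lay far from the rest of its group, its gap to the nearest value taking most of the group's range, and chance alone gives such a gap in about 1 in 20 sets. Fhl1 was at 74.1 CPM in Ang II + FI 3, against 41.7 to 46 CPM in the other 3 Ang II + FI libraries. Ang II + FI 3 is also the library with hepatocyte transcripts, whose part in this value was not tested. In saline 4 Fhl1 was at 58.8 CPM, against 35.2 to 36.7 CPM in the other 3 saline libraries. Flnc was at 77.2 CPM in saline 2, against 114 to 119 CPM in the other 3 saline libraries.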

How the results depend on the processing

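With each of the 12 libraries left out in turn, edgeR called 0 to 4 of the 10 genes (2 with all libraries) for Ang II against saline, 0 in each fit for Ang II + FI against Ang II and 1 to 3 (3 with all) for Ang II + FI against saline. All genes called numbered 90 to 683 (388 with all libraries), 0 to 1 (0 with all) and 41 to 220 (170 with all) in the same order of comparisons. DESeq2 called 6, 0 and 6 of the 10 genes and 1099, 42 and 847 genes, and without a filter on low counts edgeR called 190, 0 and 64 genes. Fitting only the groups compared left 1 of the 10 genes and 48 genes for Ang II + FI against saline. With Ang II 3 and Ang II + FI 3, the libraries with the most hepatocyte transcripts, both left out, an alternative chosen after seeing the data, 2 genes differed between Ang II + FI and Ang II.

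The labels give the groups the same replicate numbers. A replicate block left 1 of the 10 genes and 124 genes for Ang II against saline, and 2 of the 10 and 61 genes for Ang II + FI against saline. Acta1 then stood at 1.72 and 1.85 (edgeR adjusted p = 0.0608 and 0.0724). Deviations of same-numbered libraries from their group means had correlations of -0.0572 to 0.105. The highest was between Ang II + FI 3 and Ang II 3, the libraries with the most hepatocyte transcripts. The other same-numbered pairs reached at most 0.0566, and pairs with unlike numbers reached 0.079, so the numbers were not taken as pairs.

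Signs turned for small log2 fold changes that passed no threshold. Over the fits without 1 library Nmrk2 ranged over -0.50 to 0.18 for Ang II against saline. For Ang II + FI against Ang II the ranges were -0.0129 to 0.22 for Acta1, -0.0264 to 0.26 for Ankrd1, -0.21 to 0.21 for Fhl1, -0.19 to 0.0214 for Uchl1 and -0.42 to 0.16 for Nmrk2. With both hepatocyte-bearing libraries left out Ankrd1 stood at -0.0908, Fhl1 at -0.0247 and Uchl1 at 0.0469 in that comparison. The sum of Nmrk2 and Atcayos, which follows mainly Atcayos, stood at 0.17. Of all single-gene values under these alternatives, 581 kept their sign and side of the threshold, 24 lost a call, 10 gained one and 18 turned sign, and the cause was not tested. Of the 18, 1 was the sum of Nmrk2 and Atcayos. Most of the 581 were values not called with all libraries, which could lose no call. All 24 losses fell on the 2 calls for Ang II against saline and the 3 for Ang II + FI against saline, so these calls were far less stable than the 581 make them seem. Depth limits Ankrd2, which has 8 to 20 counts per saline library.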

Other observations

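The 4 libraries with the most Fhl1, Ang II + FI 3, Ang II 3, Ang II 4 and saline 4, had 58.8 to 74.1 CPM of it, and the other 8 had 34.8 to 46 CPM. The same 4 libraries had the least Nmrk2, at 2.69 to 3.74 CPM, and the other 8 had 4.23 to 9.21 CPM. Each group holds at least 1 of the 4. The split does not extend to the other libraries: in Ang II + FI 1, 2 and 4, Fhl1 was 42.7, 41.7 and 46 CPM and Nmrk2 4.61, 4.23 and 6.49 CPM, in the same order. The split of 4 against 8 was noticed in the data and is given as values, with no test.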
